A study of Mus musculus with 23 samples.

Results

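Microglia (MG) that repopulated the mouse brain after pharmacological depletion and were then exposed to stroke were compared with MG of vehicle-treated mice exposed to the same stroke. The libraries were those whose names end in MG, which make up 10 of the 23 RNA-seq libraries of the study. All 10 came from Ccr2creERT2/+ R26tdT/tdT mice, in which tamoxifen switches on the red protein tdTomato in cells that express Ccr2, a receptor of circulating monocytes. The BLZ945 group held 5 libraries from mice gavaged with BLZ945, which blocks the CSF-1 receptor, at 200 mg/kg for 7 days. The vehicle group, called CTL, held 5 libraries from mice gavaged with hydroxypropyl-β-cyclodextrin for the same 7 days. Both groups received tamoxifen at 2 mg per day around the end of gavage, had a stroke induced 8 weeks later by thrombin injected into the middle cerebral artery, and were killed 1 day after that stroke. No library in this set came from mice without stroke or without tamoxifen. The cells were sorted as CD45intCD11b+CD206- from a coronal brain slice without choroid plexus. By the study's methods, Ly6C+, Ly6G+ and CD11c+ cells were gated out. Library names carry a letter and a number (F1, F2, F3, M1 and M2 in each group), and values below are given in that order. Each CTL library came from 1 animal, whereas 4 of the 5 BLZ945 libraries pooled 2 animals and F2 came from 1, so pooling and treatment cannot be told apart. The names of BLZ945 F2 and M1 share an animal number. Xist, expressed from the inactive X chromosome, and Y-linked genes nevertheless split the libraries by letter. Xist was at 0 in BLZ945 M1. The p-values measure the spread between these libraries.

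Microglia are the resident macrophages of the brain parenchyma, seeded before birth and kept up by local division. They depend on the CSF-1 receptor for survival, so an inhibitor of this receptor empties the niche, and the cells that remain, or cells that enter from the blood, refill it once the drug is withdrawn. Microglia in the uninjured brain are known for genes such as P2ry12, Tmem119 and Sall1. After injury they are known to turn on genes for phagocytosis, lipid handling, cytokines and antigen presentation. The comparison asked whether MG that refilled the niche had the same transcriptome 1 day after stroke as MG that had occupied it throughout.

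Each library held 9503442 to 12215665 counts assigned to genes, and 13779 to 16207 genes had at least 1 count. Values are given as CPM, the count rescaled to a library of 1000000 with trimmed mean of M-values (TMM) factors, and ± after a log2 fold change gives its SE. In these units, 3 counts corresponded to 0.246 to 0.314 CPM depending on the library. Homeostatic markers were abundant in every library. P2ry12, the purinergic receptor that steers microglial processes, was at 5624, 5669, 4716, 5341 and 3135 CPM in CTL MG and 4994, 5222, 3395, 5151 and 3998 CPM in BLZ945 MG. Tmem119, a microglial surface protein, ranged from 2219 to 3918 CPM in CTL MG and 2787 to 3569 CPM in BLZ945 MG. The summed level of the 17 homeostatic genes was 76008 to 79973 CPM in 4 CTL libraries and 58088 CPM in CTL M2, which thus stood apart, and 63308 to 91100 CPM in BLZ945 MG. Of the markers of other leukocytes, 8 of 14 for monocytes, 5 of 12 for neutrophils, 5 of 10 for dendritic cells and 12 of 14 for lymphocytes had a mean under 1 CPM in both groups. Ly6c2, Ly6g, Cd3g and Clec9a were at or near 0. Other members were higher. The monocyte marker Ms4a4c had means of 10.1 CPM in CTL MG and 21.7 CPM in BLZ945 MG, whereas Plac8 had 4.23 and 1.00 CPM and Ccr2 6.32 and 4.22 CPM. Of the 14 monocyte markers, 7 had a lower mean in BLZ945 MG and 6 a higher mean. The neutrophil markers S100a8, S100a9 and Ngp reached 15.2, 9.75 and 6.32 CPM in CTL F3 and 15.7, 13.9 and 13.5 CPM in BLZ945 M1. Of the 12 neutrophil markers, 9 had a higher mean in BLZ945 MG. For S100a8, S100a9, Ngp, Camp and Ltf, the counts in BLZ945 MG lay almost wholly in F3 and M1. S100a8, for instance, was at 0.105, 0, 8.37, 15.7 and 0 CPM. The median of the summed neutrophil markers without Csf3r was 2.62 CPM in CTL MG and 2.09 CPM in BLZ945 MG.

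Of 33280 genes in the table, 11264 had enough counts to be tested, and the median log2 fold change (BLZ945 over CTL) across them was 0.00. At an edgeR adjusted p below 0.05, 46 genes (0.408% of those tested) differed between repopulated and vehicle MG. Of these, 28 were higher in BLZ945 MG (0.249%) and 18 were lower (0.16%), and 34 of the 46 differed by more than 2-fold. The groups did not overlap in any library for 42 of the 46, the exceptions being Cd36, Samd9l, Cmpk2 and Crybb1. Without adjustment for multiple testing, 790 genes were higher (7.01%) and 702 lower (6.23%) at p below 0.05. These 2 shares are the background for counts of that kind below that come from this fit, and other fits had other backgrounds. In either direction, this fit gave 1492 such genes of 11264. Leaving out 1 library gave from 1158 of 11449 (without BLZ945 M2) to 1843 of 11408 (without BLZ945 F2). The fit of all 23 libraries gave 604 of 13790, the F libraries alone 818 of 11401 and the M libraries alone 1085 of 11418. Groups that did not overlap were seen for 171 genes in the higher direction (1.52%) and 177 in the lower direction (1.57%). DESeq2, which models the same counts differently, called 132 genes higher (1.17%) and 105 lower (0.932%), the 46 genes among them. The count was sensitive to single libraries: it was 102 without CTL M2 and 94 without BLZ945 F2, but 22 without CTL M1, 22 without CTL F2, 29 without CTL F1, 23 without BLZ945 F3, 24 without BLZ945 M2 and 29 without BLZ945 M1. Of the 46 genes, 18 passed the threshold in each of the 10 fits that left out 1 library and the other 28 in 1 to 8 of them. All 46 kept their direction in each of these fits.

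**Figure D1:**
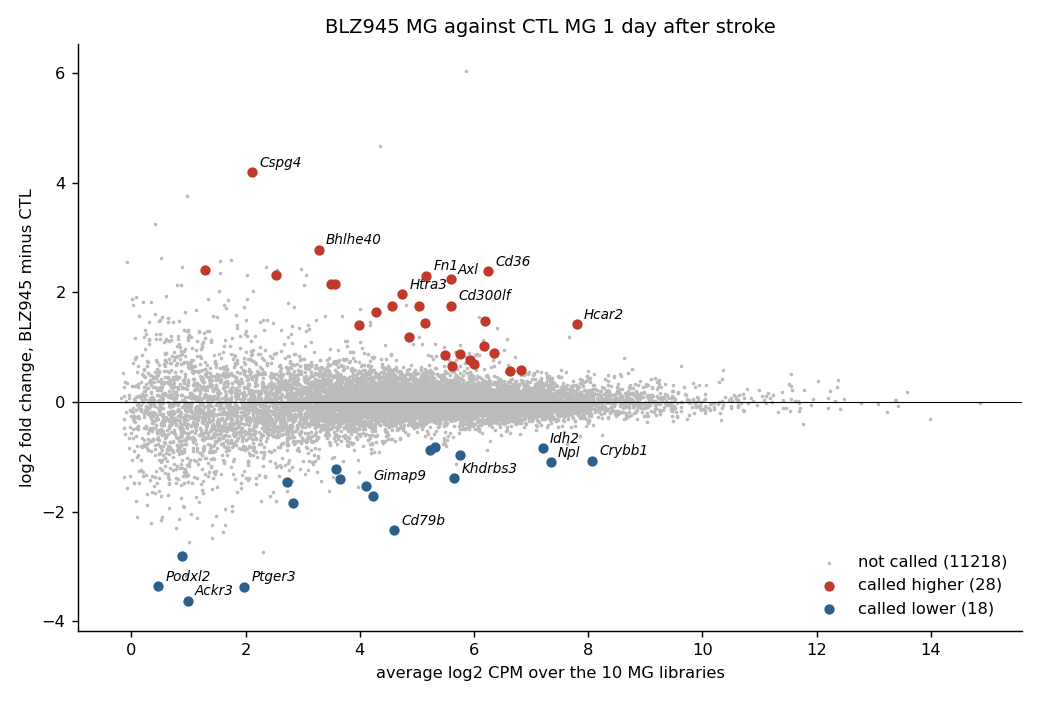
Log2 fold change between BLZ945 and CTL MG (vertical axis) against mean expression in log2 CPM (horizontal axis) for the 11264 genes tested, 1 point per gene. The 46 genes past the threshold are coloured, 28 above 0 and 18 below 0, and the called genes with the largest changes, Cspg4 and Ackr3, lie at the low end of the expression axis.

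The receptor genes Cd300lf, Axl, Cd36 and Hcar2 were among the 28 that rose. Cd300lf, an inhibitory receptor that binds phosphatidylserine and other membrane lipids of dying cells, was at 21.1, 30.2, 23.5, 11.7 and 23.8 CPM in CTL MG and 66.5, 60.4, 114, 60.4 and 71.9 CPM in BLZ945 MG. Every BLZ945 library lay above every CTL library, and the mean went from 22.04 ± 6.68 to 74.5 ± 22.3 CPM (SD, n = 5 each; log2 fold change of 1.76 ± 0.23, adjusted p = 0.00217 by edgeR). Axl, a receptor tyrosine kinase that recognises dying cells through the bridging ligand Gas6, was at 7.57, 10.3, 42.3, 14.1 and 9.76 CPM in CTL MG and 97.9, 57.4, 76.6, 88.4 and 76.2 CPM in BLZ945 MG. CTL F3 was the highest of its group and still below the lowest BLZ945 library (log2 fold change of 2.24 ± 0.37, adjusted p = 0.01 by edgeR). Cd36, a scavenger receptor for oxidised lipids and fatty acids, was at 12.8, 5.53, 36.03, 19.4 and 47.9 CPM in CTL MG and 82.5, 32.4, 173, 133 and 214 CPM in BLZ945 MG. BLZ945 F2 lay below CTL F3 and CTL M2, so the groups overlapped (log2 fold change of 2.38 ± 0.50, adjusted p = 0.0497 by edgeR). Hcar2, the receptor for nicotinic acid and the ketone body β-hydroxybutyrate, was at 70.7, 76.5, 151, 131 and 178 CPM in CTL MG and 377, 262, 367, 252 and 365 CPM in BLZ945 MG, with no overlap (log2 fold change of 1.42 ± 0.22, adjusted p = 0.00848 by edgeR). Cd300lf, Axl and Hcar2 passed the threshold whichever library was left out, whereas Cd36 passed in 2 of the 10 such fits.

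Pdcd1, Scimp, Tnfsf8, Il15ra, Gpr65, Trpv4 and Map3k8 were also among the genes that rose. Pdcd1, which encodes the inhibitory receptor PD-1, was at 13.01, 6.09, 15.8, 26.02 and 13.9 CPM in CTL MG and 55.2, 55.8, 43.4, 47.8 and 48.8 CPM in BLZ945 MG. The 5 BLZ945 values were close together and all above the highest CTL value (log2 fold change of 1.75 ± 0.26, adjusted p = 0.00583 by edgeR). Scimp, an adaptor that couples immune receptors to Src family kinases, went from 10.7 ± 3.84 to 36.3 ± 9.48 CPM (log2 fold change of 1.76 ± 0.24, adjusted p = 0.00294 by edgeR). Tnfsf8, the ligand of CD30, ranged from 1.15 to 8.02 CPM in CTL MG and 12.97 to 21.2 CPM in BLZ945 MG (log2 fold change of 2.14 ± 0.43, adjusted p = 0.0436 by edgeR). Il15ra, which presents the cytokine IL-15, rose less, from 37.9 ± 9.67 to 69.6 ± 15.4 CPM (log2 fold change of 0.88 ± 0.18, adjusted p = 0.0491 by edgeR). Gpr65, a receptor that senses protons, went from 45.1 ± 6.71 to 76.5 ± 10.4 CPM (log2 fold change of 0.76 ± 0.13, adjusted p = 0.0154 by edgeR). Trpv4, a calcium-permeable channel gated by warmth and stretch, ranged from 5.09 to 16.02 CPM in CTL MG and 18.3 to 26.1 CPM in BLZ945 MG (log2 fold change of 1.40 ± 0.27, adjusted p = 0.0358 by edgeR). Map3k8, the kinase that links Toll-like and TNF receptors to ERK, rose from 90.3 ± 11.8 to 135 ± 18.05 CPM (log2 fold change of 0.58 ± 0.12, adjusted p = 0.0493 by edgeR). Pdcd1 and Scimp passed in all 10 fits without 1 library, while Il15ra and Map3k8 passed in 2.

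In the list of 29 matrix and extracellular proteolysis genes, 1 rose, Fn1, and 1 fell, Serpinf1. Fn1, which encodes fibronectin, was at 8.25, 14.3, 2.53, 11.5 and 23.5 CPM in CTL MG and 66.5, 61.7, 84.4, 32.9 and 52.3 CPM in BLZ945 MG. The lowest BLZ945 library, M1, lay above the highest CTL library, M2 (log2 fold change of 2.30 ± 0.39, adjusted p = 0.0124 by edgeR). Htra3, a secreted serine protease, was at 16.4, 11.2, 4.51, 16.1 and 6.15 CPM in CTL MG and 36.1, 65.7, 36.3, 37.7 and 35.8 CPM in BLZ945 MG, and BLZ945 F2 was well above its group (log2 fold change of 1.96 ± 0.31, adjusted p = 0.00848 by edgeR). Chst1, a sulfotransferase that modifies keratan sulfate, rose from 38.7 ± 12.2 to 107 ± 20.8 CPM (log2 fold change of 1.47 ± 0.20, adjusted p = 0.00263 by edgeR). St14, the membrane protease matriptase, ranged from 12.5 to 23.003 CPM in CTL MG and 31.5 to 49.7 CPM in BLZ945 MG (log2 fold change of 1.18 ± 0.18, adjusted p = 0.00848 by edgeR). Sdc3, a heparan sulfate proteoglycan, went from 57.01 ± 7.24 to 106 ± 19.3 CPM (log2 fold change of 0.89 ± 0.13, adjusted p = 0.00665 by edgeR). Fgl2, a fibrinogen-like protein, and Sh3pxd2b, a podosome scaffold, had log2 fold changes of 1.01 ± 0.21 and 2.32 ± 0.44. Cspg4, which encodes the NG2 proteoglycan, showed the largest fold change of the 46 genes, from 1.75, 0.0922, 0, 0 and 0.328 CPM in the CTL libraries to 9.11, 6.45, 7.47, 4.96 and 11.7 CPM in the BLZ945 libraries (log2 fold change of 4.19 ± 0.77, adjusted p = 0.0264 by edgeR). Cspg4 also marks oligodendrocyte precursors and pericytes. Mean levels in CTL and BLZ945 MG were 0.0749 and 0.125 CPM for Pdgfra, 0.871 and 0.268 CPM for Olig1 and 0.957 and 0.336 CPM for Pdgfrb. They were 3.85 and 2.05 CPM for Vtn, 2.01 and 1.10 CPM for Rgs5 and 7.96 and 2.45 CPM for Acta2, which mark mural cells. Of the 12 vascular and 12 oligodendrocyte markers, Cspg4 being in both lists, 9 in each had a lower mean in BLZ945 MG. The part of these cells in the Cspg4 counts was not tested. Fn1, Htra3, Chst1, St14 and Sdc3 passed in all 10 fits without 1 library, and Cspg4 passed in 5.

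**Figure D2:**
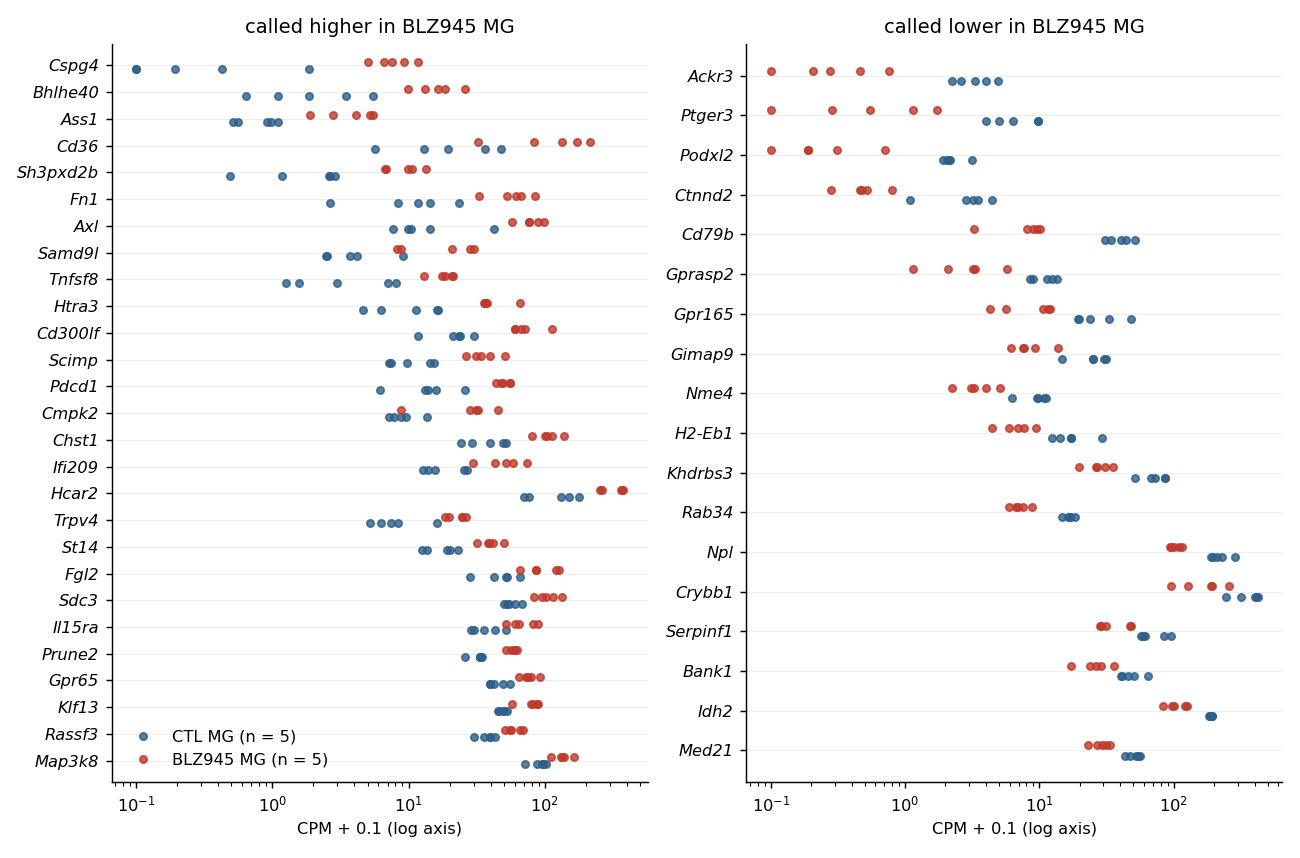
CPM plus 0.1 on a log axis for 45 of the 46 genes past the threshold, 1 point per library, with CTL libraries in blue and BLZ945 libraries in red and genes ordered by fold change. The 2 colours separate in 41 of these genes; Cd36, Samd9l, Cmpk2 and Crybb1 overlap.

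Regulatory and metabolic genes among those that rose included Bhlhe40, a basic helix-loop-helix repressor of the macrophage lineage, which was at 3.397, 1.75, 0.993, 0.54 and 5.41 CPM in CTL MG and 12.99, 9.85, 25.9, 16.2 and 18.5 CPM in BLZ945 MG. Its groups did not overlap (log2 fold change of 2.77 ± 0.47, adjusted p = 0.0132 by edgeR). Klf13, a zinc-finger transcription factor, rose by less, from 48.6 ± 2.84 to 78.8 ± 13.02 CPM, with a log2 fold change of 0.70 ± 0.13. Ass1, argininosuccinate synthase of the arginine cycle, stood near the detection floor in CTL MG, at 0.874, 0.461, 0.813, 0.991 and 0.41 CPM, and at 1.78, 2.702, 5.397, 4.03 and 5.097 CPM in BLZ945 MG (log2 fold change of 2.41 ± 0.49, adjusted p = 0.0474 by edgeR). Rassf3, a Ras-association domain protein, and Prune2 were also higher, with log2 fold changes of 0.66 ± 0.13 and 0.86 ± 0.12. Prune2 passed in all 10 fits without 1 library and Bhlhe40 in 8.

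Of the 18 genes that fell, Ackr3 had the largest fold change. Ackr3, an atypical receptor that scavenges the chemokine CXCL12, was at 2.14, 2.49, 4.79, 3.24 and 3.94 CPM in CTL MG and 0.105, 0.174, 0.36, 0.655 and 0 CPM in BLZ945 MG, several of the BLZ945 values resting on a handful of counts (log2 fold change of -3.62 ± 0.66, adjusted p = 0.0254 by edgeR). Ptger3, a receptor for prostaglandin E2, was at 9.71, 9.59, 6.23, 4.86 and 3.94 CPM in CTL MG and 1.05, 0, 1.62, 0.187 and 0.447 CPM in BLZ945 MG (log2 fold change of -3.36 ± 0.66, adjusted p = 0.0408 by edgeR). Gpr165, an orphan receptor, ranged from 19.2 to 47.9 CPM in CTL MG and 4.21 to 11.98 CPM in BLZ945 MG (log2 fold change of -1.70 ± 0.32, adjusted p = 0.027 by edgeR). Gprasp2, which sorts G protein-coupled receptors after internalisation, had a log2 fold change of -1.84 ± 0.37. Cd79b, known as a chain of the B cell receptor complex, was at 34.3, 40.2, 43.97, 51.1 and 30.8 CPM in CTL MG and 10.1, 9.502, 8.91, 3.18 and 8.05 CPM in BLZ945 MG. The highest BLZ945 library, F1, was below the lowest CTL library, M2 (log2 fold change of -2.33 ± 0.25, adjusted p = 0.000477 by edgeR). Bank1, a scaffold of B cell signalling, went from 48.5 ± 9.52 to 26.3 ± 6.81 CPM (log2 fold change of -0.88 ± 0.18, adjusted p = 0.0497 by edgeR). The remaining lymphocyte markers, without Cd79b and Ighm, summed to 0.0922 to 3.12 CPM in CTL MG and 0 to 1.68 CPM in BLZ945 MG, with Cd3g at 0. Ighm, the heavy chain of IgM and also a lymphocyte marker, was at 365 ± 79.1 CPM in CTL MG and 240.1 ± 42.9 CPM in BLZ945 MG (log2 fold change of -0.60 ± 0.15, adjusted p = 0.0854 by edgeR) and was called lower by DESeq2. The part of lymphocytes in these differences was not tested.

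Npl and Khdrbs3 were among the other genes that fell. Npl, N-acetylneuraminate lyase, which breaks down sialic acid, was at 228, 189, 195, 209 and 284 CPM in CTL MG and 115, 101, 109, 95.9 and 93.7 CPM in BLZ945 MG. The BLZ945 values were close together, and all lay below the lowest CTL value (log2 fold change of -1.10 ± 0.12, adjusted p = 0.000477 by edgeR). Khdrbs3, an RNA-binding splicing factor, was at 86.8, 72.4, 67.6, 85.7 and 51.8 CPM in CTL MG and 26.9, 26.4, 19.7, 30.7 and 35.1 CPM in BLZ945 MG (log2 fold change of -1.39 ± 0.17, adjusted p = 0.00154 by edgeR). Idh2, mitochondrial isocitrate dehydrogenase, was at 188, 194, 184, 193 and 186 CPM in CTL MG and 97.3, 121, 101, 125 and 83.7 CPM in BLZ945 MG, the CTL libraries differing little from each other (log2 fold change of -0.84 ± 0.11, adjusted p = 0.00263 by edgeR). Serpinf1, which encodes the secreted protein PEDF, went from 71.4 ± 17.6 to 36.7 ± 10.1 CPM (log2 fold change of -0.96 ± 0.19, adjusted p = 0.0444 by edgeR). Crybb1, a crystallin gene, was at 406, 319, 420.2, 425 and 246 CPM in CTL MG and 128, 259.5, 190.2, 193 and 94.96 CPM in BLZ945 MG, and BLZ945 F2 lay above CTL M2 (log2 fold change of -1.07 ± 0.22, adjusted p = 0.0491 by edgeR). Rab34, a small GTPase, and Med21, a Mediator subunit, had log2 fold changes of -1.22 ± 0.19 and -0.82 ± 0.13. Nme4, a mitochondrial nucleoside diphosphate kinase, Podxl2, a sialomucin, and Ctnnd2, a catenin, were low in both groups, with log2 fold changes of -1.46 ± 0.30, -3.36 ± 0.69 and -2.81 ± 0.56. Cd79b, Npl, Khdrbs3, Idh2, Rab34 and Med21 passed in all 10 fits without 1 library, while Podxl2 passed in 1.

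Macrophages of the leptomeninges and of the perivascular space, called subdural CNS-associated macrophages (sdCAMs), were sorted in the same experiment, and their genes were followed as a measure of cells other than microglia. Of 15 sdCAM markers, 12 had a lower mean in BLZ945 MG; without Stab1 they summed to 31.2 to 60.9 CPM in CTL MG and 15.5 to 41.6 CPM in BLZ945 MG. Mrc1, which encodes the CD206 used to gate these cells out, was at 5.53, 10.7, 37.8, 11.3 and 6.48 CPM in CTL MG and 6.39, 3.3996, 6.03, 4.68 and 6.08 CPM in BLZ945 MG (log2 fold change of -1.43 ± 0.45, unadjusted p = 0.00542 and adjusted p = 0.177 by edgeR). CTL F3 was the highest of the 10 libraries in Mrc1 and in the summed markers, and it was also the highest CTL library in Axl and Samd9l. Among the 28 higher genes, 11 (39.3%) were over 2-fold more abundant in tdT- CTL sdCAMs than in CTL MG (such as Cd36, Axl, Samd9l and Trpv4) and 7 (25%) were over 2-fold less abundant (such as Pdcd1, Htra3, Tnfsf8 and Chst1). Among the 18 lower genes, the corresponding counts were 6 (33.3%) and 7 (38.9%), and among all genes tested the shares were 9.64% and 12.4%. The same CTL MG libraries entered these ratios and the calls, so the shares are not independent of how the genes were chosen. Monocyte markers without Fn1 summed to 17.6 to 35.04 CPM in CTL MG and 19.4 to 40.0 CPM in BLZ945 MG. Neutrophil markers without Csf3r spanned 0.0971 to 36.9 CPM in CTL MG, highest in F3, and 0 to 65.3 CPM in BLZ945 MG, highest in M1. Vascular markers without Cspg4 and Pecam1 summed to 15.6 to 35.6 CPM in CTL MG and 5.10 to 21.4 CPM in BLZ945 MG, and erythroid genes to 2.49 to 15.1 and 0.314 to 5.01 CPM. In these bulk libraries, fewer cells of a type and less RNA per cell cannot be told apart, and the part of these cells in the genes above was not tested.

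**Figure D3:**
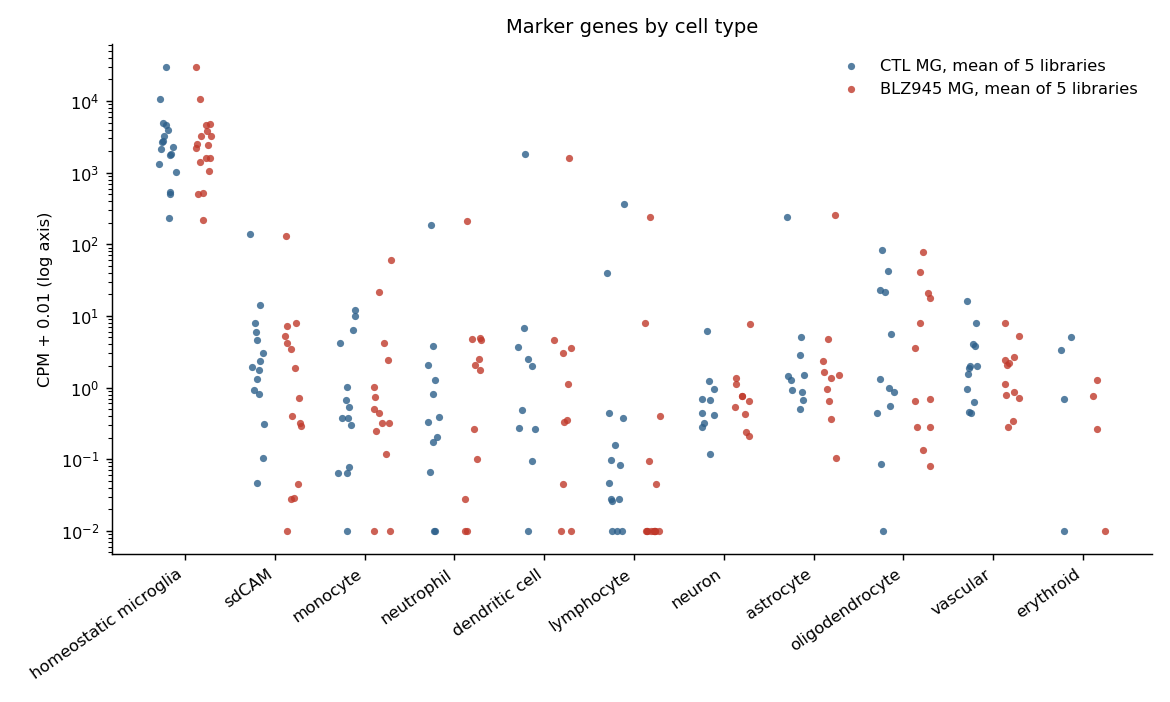
Mean CPM of the 5 libraries per group, plus 0.01 and on a log axis, for homeostatic microglial genes and for the markers of 10 other cell types; each point is 1 gene, with CTL and BLZ945 MG side by side. The homeostatic genes lie above most markers of the other cell types, and many lymphocyte markers lie at or near 0.

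Interferon-stimulated genes, which encode antiviral proteins and sensors switched on downstream of interferon receptors, leaned in 1 direction across the whole list. Many of these genes carry an interferon-stimulated response element near their start site, and the letters GAAA spaced by 2 bases from a further GAAA, or TTTC likewise from TTTC on the other strand, were searched in the 250 bases before and 50 bases after each start in RefSeq annotation of GRCm38.p6. They were present in 17 of the 28 interferon-stimulated genes that had a promoter entry (60.7%) and in 3.95% of the 8908 tested genes with one. Among the 28 higher genes, 20 had an entry and none of those windows held these letters, including those of Cmpk2, Ifi209, Samd9l and Axl. Promoters of 4 members are shown to give the sequence context of genes described next, in transcript orientation with the matched letters in capitals. They cover Oas1a (chr5:120907476-120907775, minus strand), Isg15 (chr4:156200769-156201068, minus strand), Ifit1 (chr19:34640639-34640938, plus strand) and Rsad2 (chr12:26456403-26456702, minus strand).
Oas1a: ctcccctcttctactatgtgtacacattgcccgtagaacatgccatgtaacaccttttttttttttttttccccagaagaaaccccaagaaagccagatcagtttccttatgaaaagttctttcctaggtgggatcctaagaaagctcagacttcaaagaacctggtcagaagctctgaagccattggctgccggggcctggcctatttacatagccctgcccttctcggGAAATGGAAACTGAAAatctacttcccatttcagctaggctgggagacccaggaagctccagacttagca
Isg15: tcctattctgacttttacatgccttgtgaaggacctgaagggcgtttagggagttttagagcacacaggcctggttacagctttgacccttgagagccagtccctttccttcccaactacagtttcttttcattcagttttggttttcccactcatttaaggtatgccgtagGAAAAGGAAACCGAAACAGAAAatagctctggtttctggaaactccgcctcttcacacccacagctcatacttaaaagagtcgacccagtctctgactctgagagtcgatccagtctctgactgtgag
Ifit1: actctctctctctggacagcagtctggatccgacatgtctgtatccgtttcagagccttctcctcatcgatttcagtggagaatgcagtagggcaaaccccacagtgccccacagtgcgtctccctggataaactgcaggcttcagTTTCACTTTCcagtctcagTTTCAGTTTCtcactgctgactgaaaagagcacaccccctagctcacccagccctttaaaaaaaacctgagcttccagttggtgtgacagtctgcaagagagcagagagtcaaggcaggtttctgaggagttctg
Rsad2: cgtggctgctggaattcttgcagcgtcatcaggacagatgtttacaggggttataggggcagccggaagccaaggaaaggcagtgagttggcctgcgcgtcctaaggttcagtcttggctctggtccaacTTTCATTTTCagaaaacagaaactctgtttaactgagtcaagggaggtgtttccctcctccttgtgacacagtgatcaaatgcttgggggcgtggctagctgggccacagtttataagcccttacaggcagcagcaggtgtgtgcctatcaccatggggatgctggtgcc

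All 39 interferon-stimulated genes tested had a positive log2 fold change, 26 of them (66.7%, against 7.01% of all genes) at an unadjusted p below 0.05, and the median was 0.77 against 0.00 over all genes. Only 1 passed the adjusted threshold. That gene was Cmpk2, a mitochondrial nucleotide kinase, at 7.09, 9.498, 13.6, 8.73 and 7.71 CPM in CTL MG and 28.3, 8.72, 31.2, 45.2 and 32.3 CPM in BLZ945 MG. BLZ945 F2 fell within the CTL range while the other 4 BLZ945 libraries lay above it (log2 fold change of 1.64 ± 0.32, adjusted p = 0.0415 by edgeR). Ifi209, a DNA-binding member of the IFI200 family that was not on the list, rose from 18.8 ± 6.79 to 51.4 ± 16.3 CPM (log2 fold change of 1.45 ± 0.25, adjusted p = 0.016 by edgeR). Samd9l, an antiviral factor also outside the list, was at 2.43, 3.596, 9.03, 4.05 and 2.38 CPM in CTL MG and 28.3, 8.63, 8.096, 29.95 and 20.6 CPM in BLZ945 MG (log2 fold change of 2.15 ± 0.43, adjusted p = 0.0444 by edgeR).

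Other members with low p-values did not pass the threshold. Oas3 and Oas1a, which make the 2′-5′ oligoadenylates that activate RNase L, were at 0.388, 0.461, 0.361, 0 and 0 CPM in CTL MG and 3.67, 1.22, 2.52, 8.14 and 1.34 CPM in BLZ945 MG for Oas3 and 17.3, 26.3, 22.5, 20.2 and 12.9 CPM in CTL MG and 45.05, 23.4, 42.1, 59.8 and 35.2 CPM in BLZ945 MG for Oas1a. Their log2 fold changes were 3.76 ± 0.82 and 1.05 ± 0.23, both at an edgeR adjusted p of 0.0593. Isg15, a ubiquitin-like modifier, was at 23.2, 29.4, 34.6, 30.1 and 27.1 CPM in CTL MG and 50.4, 29.7, 51.5, 74.9 and 51.3 CPM in BLZ945 MG (log2 fold change of 0.84 ± 0.19, adjusted p = 0.0725 by edgeR). Rsad2, which encodes the antiviral enzyme viperin, was at 13.3, 22.1, 62.7, 31.96 and 42.5 CPM in CTL MG and 91.6, 20.7, 104, 178 and 114 CPM in BLZ945 MG (log2 fold change of 1.55 ± 0.43, adjusted p = 0.133 by edgeR). Irf7, the transcription factor that amplifies interferon production, was at 25.2, 39.5, 42.6, 39.9 and 28.7 CPM in CTL MG and 55.1, 24.6, 69.1, 137 and 76.3 CPM in BLZ945 MG (log2 fold change of 1.04 ± 0.31, adjusted p = 0.163 by edgeR). Ifit2, an RNA-binding antiviral protein, was at 36.5, 44.6, 79.4, 31.1 and 31.9 CPM in CTL MG and 111, 28.1, 91.5, 153 and 103 CPM in BLZ945 MG (log2 fold change of 1.12 ± 0.34, adjusted p = 0.166 by edgeR). Ifit1, of the same family, ranged from 23.3 to 59.6 CPM in CTL MG and 14.5 to 82.5 CPM in BLZ945 MG, so the groups overlapped (log2 fold change of 0.77 ± 0.35, adjusted p = 0.356 by edgeR). Ifi204, Slfn5 and Oasl2 had log2 fold changes of 0.94 ± 0.21, 1.10 ± 0.26 and 1.06 ± 0.29. Ly6e was among the members with little difference, at a log2 fold change of 0.08 ± 0.12.

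In each library the mean log2(CPM + 1) of the 39 genes was 4.43, 4.78, 5.04, 4.85 and 4.30 in CTL MG and 5.48, 4.63, 5.34, 5.97 and 5.41 in BLZ945 MG. BLZ945 F2, the library from a single animal, lay inside the CTL range, and the other 4 BLZ945 libraries lay above it, BLZ945 M1 being highest. Without BLZ945 F2, 13 of the 39 passed the adjusted threshold with a median log2 fold change of 0.93. None passed in 7 of the 10 fits without 1 library (CTL F1, F2 or M1, or BLZ945 F1, F3, M1 or M2), and Cmpk2 passed in 3. Over the 10 fits, 18 to 27 of the 39 had an unadjusted edgeR p below 0.05, and the median was 0.61, its lowest, without BLZ945 M1. In the 3 F libraries per group alone, 8 of 39 had an unadjusted p below 0.05 with a median of 0.41, and in the 2 M libraries per group alone, 25 of 39 with a median of 1.15. A test of the difference between the letters (letter by treatment interaction, edgeR) found none of the 39 past the adjusted threshold, the lowest adjusted p being 0.833. At an unadjusted p below 0.05 it gave 5 of the 39 (12.8%), against 5.53% of all genes. DESeq2 called 9 of the 39 over all 10 libraries. With other edgeR settings, 16 passed without a count filter and 5 with a block for the library name. With a term for the library letter, 0 passed, and 0 in the fit of all 23 libraries. BLZ945 M1 also held the most neutrophil marker counts, at 65.3 CPM in sum, although the sort gated out Ly6G+ cells. The part of neutrophils in the interferon-stimulated genes was not tested.

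**Figure D4:**
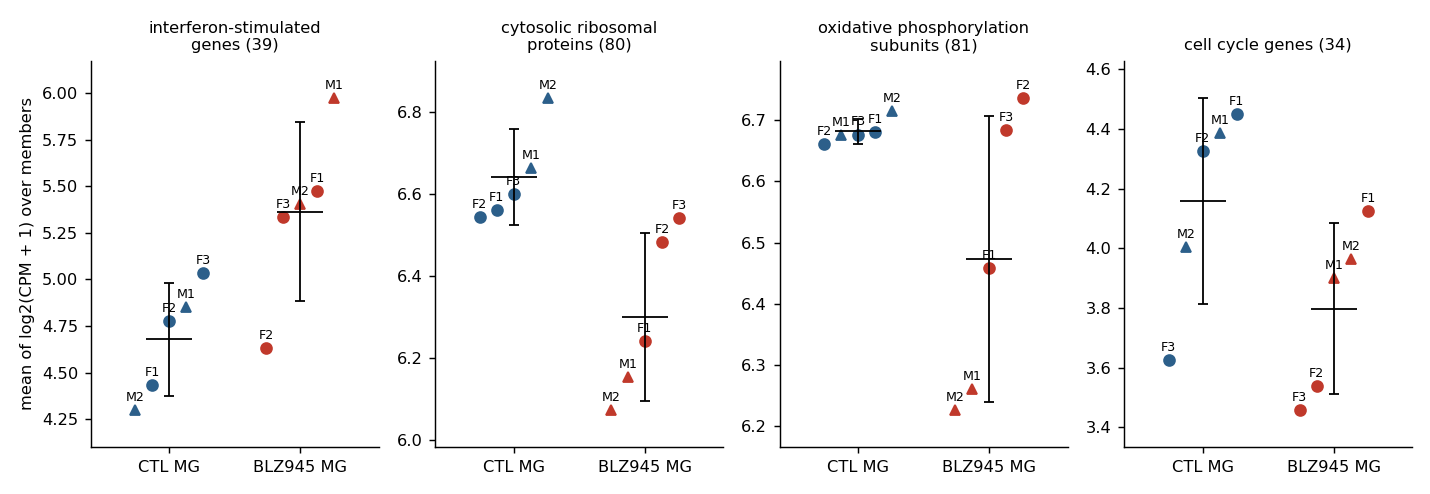
Mean log2(CPM + 1) over the genes of a list in each library, 1 panel for each of 4 lists on separate vertical scales, with circles for F and triangles for M libraries and bars for the mean ± SD of 5 libraries per group. The interferon-stimulated genes of BLZ945 F2 lie within the CTL range, and ribosomal protein genes are lowest in BLZ945 F1, M1 and M2.

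Antigen presentation genes are given by class. H2-Eb1, the β chain of an MHC class II molecule, was at 12.2, 29.05, 17.2, 14.2 and 17.1 CPM in CTL MG and 9.32, 5.84, 7.65, 4.31 and 6.796 CPM in BLZ945 MG, and its groups did not overlap (log2 fold change of -1.40 ± 0.27, adjusted p = 0.0354 by edgeR). Its partners in the same class gave H2-Aa at 15.7 to 43.1 CPM in CTL MG and 3.37 to 14.8 CPM in BLZ945 MG (log2 fold change of -1.54 ± 0.37, adjusted p = 0.0785 by edgeR) and H2-Ab1 at 33.5 to 76.2 CPM in CTL MG and 24.9 to 43.9 CPM in BLZ945 MG (log2 fold change of -0.65 ± 0.21, adjusted p = 0.182 by edgeR). Cd74, the invariant chain that escorts class II molecules, was at 175 ± 33.6 CPM in CTL MG and 146 ± 39.5 CPM in BLZ945 MG, a log2 fold change of -0.25 ± 0.17. Cd86, a costimulatory ligand, had a log2 fold change of 0.28 ± 0.10. In the class II list as a whole, 1 of 14 genes fell, 3 had an unadjusted p below 0.05 in the lower and 1 in the higher direction, and the median was 0.12. H2-Eb1 was 26-fold more abundant in tdT- CTL sdCAMs than in CTL MG, and 12 of the 15 sdCAM markers had a lower mean in BLZ945 MG and 3 a higher mean. Of the called genes over 2-fold more abundant in these sdCAMs, 11 were higher and 6 lower in BLZ945 MG. Whether sdCAMs contributed to the difference in H2-Eb1 was not tested.

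For MHC class I, none of the 23 genes passed the adjusted threshold (DESeq2 called 2), while 7 (30.4%) had an unadjusted p below 0.05, all in the higher direction. H2-M3, a nonclassical class I molecule that presents formylated peptides, was at 96.96, 104, 93.4, 82.3 and 93.3 CPM in CTL MG and 152, 131, 134, 134 and 106 CPM in BLZ945 MG, without overlap (log2 fold change of 0.48 ± 0.11, adjusted p = 0.066 by edgeR). H2-D1 and H2-K1, the classical heavy chains, had log2 fold changes of 0.31 ± 0.09 and 0.43 ± 0.13, and B2m, their shared light chain, 0.28 ± 0.11. Tap2, which pumps peptides into the endoplasmic reticulum, was at a log2 fold change of 0.30 ± 0.10. The summed level of the list was 12229 to 13047 CPM in CTL MG and 12592 to 14692 CPM in BLZ945 MG, so the groups overlapped through BLZ945 M2.

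Genes that define microglial identity were present at like levels in both groups. None of the 17 homeostatic genes passed the threshold by edgeR or DESeq2, 1 had an unadjusted p below 0.05 (Olfml3, log2 fold change 0.22 ± 0.10), and the median log2 fold change was 0.00, with a range of -0.18 to 0.22. Sall1, the transcription factor that maintains microglial identity, was at 226, 239.9, 254, 294 and 165 CPM in CTL MG and 184, 269, 186, 279.5 and 189 CPM in BLZ945 MG (log2 fold change of -0.09 ± 0.16, unadjusted p = 0.576 and adjusted p = 0.863 by edgeR). Cx3cr1, the fractalkine receptor, was at 2316 ± 279 CPM in CTL MG and 2527 ± 187 CPM in BLZ945 MG (log2 fold change of 0.13 ± 0.10, unadjusted p = 0.242 and adjusted p = 0.651 by edgeR). Csf1r, the target of BLZ945, was at 4976, 5037, 4645, 4697 and 3599 CPM in CTL MG and 4455, 4758, 4396, 5503 and 4999 CPM in BLZ945 MG, so its level 8 weeks after the drug differed by less than the spread between libraries (log2 fold change of 0.07 ± 0.11, unadjusted p = 0.521 and adjusted p = 0.834 by edgeR). Csf2rb and Csf2rb2, chains of the receptors for GM-CSF and IL-3, had log2 fold changes of 0.36 ± 0.12 and 0.52 ± 0.16 at edgeR adjusted p of 0.225 and 0.172. Among 24 lineage transcription factors, Bhlhe40 rose, 9 (37.5%) had an unadjusted p below 0.05 in the higher direction and 1, Maf, in the lower direction, with a median of 0.13. Besides Bhlhe40, the groups did not overlap for other members, among them Sall3 (log2 fold change 0.48 ± 0.12) and Bhlhe41 (0.39 ± 0.10). DESeq2 called 4 of the 24.

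Genes known from activated and disease-associated microglia gave 1 gene that rose among 23, Axl, and 6 (26.1%) with an unadjusted p below 0.05, all higher. Clec7a, the β-glucan receptor Dectin-1, was at 18.7, 6.36, 3.07, 9.36 and 25.1 CPM in CTL MG and 41.1, 11.9, 43.7, 61.2 and 56.6 CPM in BLZ945 MG (log2 fold change of 1.77 ± 0.47, adjusted p = 0.106 by edgeR). Ch25h, which makes 25-hydroxycholesterol, was at 48.04, 21.2, 92.4, 52.9 and 83.1 CPM in CTL MG and 193, 58.9, 96.8, 146 and 161 CPM in BLZ945 MG (log2 fold change of 1.14 ± 0.33, adjusted p = 0.156 by edgeR). Igf1 and Fabp5, a growth factor and a fatty acid carrier, had log2 fold changes of 1.31 ± 0.57 and 1.24 ± 0.45, at edgeR adjusted p of 0.343 and 0.257. Spp1, osteopontin, was at 2253, 338, 1482, 611 and 18337 CPM in CTL MG and 5572, 776, 7212, 4356 and 12326 CPM in BLZ945 MG, with CTL M2 the highest of its group (log2 fold change of 0.39 ± 0.84, unadjusted p = 0.645 and adjusted p = 0.889 by edgeR). Apoe, the main lipid carrier of the brain, was at 623 ± 448 CPM in CTL MG and 659 ± 408 CPM in BLZ945 MG (log2 fold change of 0.08 ± 0.41, unadjusted p = 0.849 and adjusted p = 0.961 by edgeR). These values moved in both directions when 1 library was left out. Without CTL M2, 3 of the 23 genes passed the adjusted threshold, 10 were higher at an unadjusted p below 0.05 and the median log2 fold change went from 0.15 to 0.29. Without BLZ945 F2, 2 genes passed. The number higher at an unadjusted p below 0.05 was 3, with 1 lower, without BLZ945 F3 (median 0.10) and 4 without CTL F2 (median 0.09). The median was 0.22 without CTL F3 and 0.23 without BLZ945 M1.

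Uptake and efferocytosis genes held 3 that rose among 20 (Cd300lf, Axl and Cd36) and none that fell by edgeR (DESeq2 called 1 lower). In the lower direction, 3 had an unadjusted p below 0.05. These were Scarb1, a scavenger receptor for high-density lipoprotein, at a log2 fold change of -0.52 ± 0.14, Gas6, the ligand of Axl, at -0.46 ± 0.16, and Cd300a at -0.28 ± 0.13, with edgeR adjusted p of 0.109, 0.247 and 0.347. Mertk, the receptor related to Axl, was at 413 ± 43.3 CPM in CTL MG and 462 ± 40.9 CPM in BLZ945 MG, a log2 fold change of 0.16 ± 0.10. In the Cd300 family, Cd300lf was the 1 gene of 5 that rose. All 6 Ms4a genes tested, a family of tetraspan membrane proteins, had positive log2 fold changes with a median of 0.63, and 3 had an unadjusted p below 0.05: Ms4a4c at 1.10 ± 0.36, Ms4a6c at 0.60 ± 0.16 and Ms4a6d at 0.34 ± 0.13. All 4 Gimap genes tested, GTPases of lymphocyte and endothelial cells, had negative values. Gimap9 fell, at 31.4, 30.4, 14.7, 25.03 and 24.9 CPM in CTL MG and 9.11, 7.41, 6.03, 13.7 and 7.601 CPM in BLZ945 MG, and passed in all 10 fits without 1 library (log2 fold change of -1.53 ± 0.25, adjusted p = 0.01 by edgeR). Gimap6 and Gimap1 had log2 fold changes of -0.83 ± 0.19 and -0.81 ± 0.23 at edgeR adjusted p of 0.0713 and 0.152. Pecam1, an endothelial and leukocyte adhesion molecule, was at 12.2 to 18.9 CPM in CTL MG and 1.35 to 9.53 CPM in BLZ945 MG (log2 fold change of -1.62 ± 0.35, adjusted p = 0.0593 by edgeR). Of the 12 vascular markers, 9, Pecam1 among them, had a lower mean in BLZ945 MG and 3 a higher mean. The endothelial markers Flt1 and Cdh5 were among those 3, with means of 1.87 and 0.444 CPM in CTL MG and 2.17 and 0.717 CPM in BLZ945 MG. Whether endothelial cells contributed to the differences in Pecam1 and the Gimap genes was not tested.

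None of 19 cytokine genes passed the adjusted threshold by edgeR, 4 had an unadjusted p below 0.05 (21.1%, all higher) and DESeq2 called 1. Tnfsf13b, the B cell survival factor BAFF, was at 51.6, 54.9, 44.3, 47.5 and 29.7 CPM in CTL MG and 72.4, 87.95, 53.5, 105 and 70.9 CPM in BLZ945 MG (log2 fold change of 0.77 ± 0.18, adjusted p = 0.0785 by edgeR). Il6 was at 31.4, 28.1, 29.1, 32.1 and 26.98 CPM in CTL MG and 39.1, 50.4, 40.3, 47.9 and 29.6 CPM in BLZ945 MG (log2 fold change of 0.49 ± 0.15, adjusted p = 0.168 by edgeR), and Il18bp, the antagonist of IL-18, had a log2 fold change of 0.87 ± 0.30. Tnf and Il1b, cytokines of acute inflammation, were at 457 ± 145 CPM in CTL MG and 573 ± 111 CPM in BLZ945 MG for Tnf and 74.01 ± 32.8 CPM in CTL MG and 95.2 ± 50.8 CPM in BLZ945 MG for Il1b, with log2 fold changes of 0.33 ± 0.20 and 0.36 ± 0.39. Of 17 chemokines, none passed by edgeR (DESeq2 called 1 higher), 4 had an unadjusted p below 0.05 in the higher and 1 in the lower direction, and the median was 0.08. Ccl5, which attracts T cells and monocytes, was at 3.397, 10.8, 6.05, 11.5 and 15.99 CPM in CTL MG and 37.8, 10.9, 25.9, 27.6 and 28.97 CPM in BLZ945 MG (log2 fold change of 1.45 ± 0.36, adjusted p = 0.0849 by edgeR). Cxcl2, a neutrophil attractant, was at 11.3 to 99.5 CPM in CTL MG and 71.05 to 172 CPM in BLZ945 MG (log2 fold change of 1.35 ± 0.41, adjusted p = 0.171 by edgeR). Ccl7 was the 1 in the lower direction, at a log2 fold change of -0.77 ± 0.30. Ccl3 and Ccl4, which attract macrophages and T cells, were at 1354 ± 626 CPM in CTL MG and 1184 ± 401 CPM in BLZ945 MG for Ccl3 and 3470.0 ± 1796 CPM in CTL MG and 3109 ± 1174 CPM in BLZ945 MG for Ccl4, with log2 fold changes of -0.19 ± 0.29 and -0.16 ± 0.33. Of 10 chemokine receptors, 1 fell, Ackr3, described above.

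Innate signalling lists had positive medians. In the NF-κB list, 5 of 24 genes (20.8%) had an unadjusted p below 0.05, all higher, with a median of 0.23, and none passed by edgeR or DESeq2. Tnfaip3, the deubiquitinase A20 that restrains NF-κB, had the lowest p (log2 fold change of 0.64 ± 0.22, unadjusted p = 0.0112 and adjusted p = 0.234 by edgeR). Among 29 immediate early and AP-1 genes, 5 had an unadjusted p below 0.05, all higher, with a median of 0.14; Zfp36l2, which destabilises AU-rich mRNAs, was at a log2 fold change of 0.48 ± 0.12 and Fos at 0.33 ± 0.21. In the 25 Toll-like receptor genes, Tlr13, an endosomal sensor of bacterial ribosomal RNA, was at 292, 304, 278, 227 and 248 CPM in CTL MG and 365, 325, 399.5, 377 and 426 CPM in BLZ945 MG (log2 fold change of 0.49 ± 0.11, adjusted p = 0.0593 by edgeR). Tlr2 was at a log2 fold change of 0.60 ± 0.19, and the list median was 0.16. Among 21 Siglecs and inhibitory receptors, 3 had an unadjusted p below 0.05 and DESeq2 called 2; Cd274, which encodes PD-L1, the ligand of PD-1, was at 23.7, 12.8, 30.1, 24.7 and 37.7 CPM in CTL MG and 46.5, 31.7, 49.1, 58.97 and 47.1 CPM in BLZ945 MG (log2 fold change of 0.85 ± 0.23, adjusted p = 0.115 by edgeR). Havcr2, which encodes TIM-3, was at a log2 fold change of 0.53 ± 0.16. In the TGF-β pathway, 5 of 23 were higher and 1 lower at an unadjusted p below 0.05, and the groups did not overlap for the inhibitors Ski and Smad7, at a log2 fold change of 0.39 ± 0.10 and 0.37 ± 0.10, and for the shared effector Smad4, at 0.31 ± 0.10. The 16 heat shock genes had a median of -0.01, with 1 at an unadjusted p below 0.05.

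Cytosolic ribosomal protein genes had mostly small negative values, and none of them passed the edgeR threshold. Of 80, 77 had a negative log2 fold change, and 60 (75.0%, against 6.23% of all genes) had an unadjusted p below 0.05 in the lower direction and none in the higher. The groups did not overlap for 18, all in the lower direction, against 1.57% of all genes. The median log2 fold change was -0.34, with -0.35 over the 48 large subunit and -0.33 over the 32 small subunit genes. DESeq2 called 13 of the 80 lower, and edgeR called 2 without BLZ945 F2. In the fit of all 23 libraries, 24 of the 80 were lower at an unadjusted p below 0.05. Rpl36, with the lowest p, was at 60.8, 58.7, 56.8, 59.97 and 65.1 CPM in CTL MG and 33.002, 48.6, 48.5, 32.1 and 31.03 CPM in BLZ945 MG (log2 fold change of -0.64 ± 0.15, adjusted p = 0.0696 by edgeR). Together the 80 genes took 0.966%, 0.981%, 1.01%, 1.05% and 1.17% of CPM in the CTL libraries and 0.773%, 0.918%, 0.974%, 0.735% and 0.707% in the BLZ945 libraries. BLZ945 F3 thus lay within the CTL range and BLZ945 F2 close under it, while F1, M1 and M2 were well below.

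Subunits of oxidative phosphorylation carry out mitochondrial respiration. Of 81 nuclear-encoded subunit genes, 77 were negative, 15 (18.5%) had an unadjusted p below 0.05 in the lower direction and 1, Sdha, in the higher, and none passed by edgeR or DESeq2. The count of 15 depended on single BLZ945 libraries, as shown by leaving out 1 at a time. It was 36 without F2, with 2 past the adjusted edgeR threshold, and 29 without F3. It was 6 without M1 and 5 without M2, and 1 in the fit of all 23 libraries. The median log2 fold change was -0.20 (-0.13 without BLZ945 M2), ranging from -0.11 for the 4 subunits of complex II to -0.25 for the 18 of ATP synthase. Ndufs7, a core subunit of complex I, had the lowest p (log2 fold change of -0.39 ± 0.11, unadjusted p = 0.00397 and adjusted p = 0.162 by edgeR). The list summed to 1.04% to 1.09% of CPM in the CTL libraries and to 0.913%, 1.09%, 1.06%, 0.836% and 0.815% in the BLZ945 libraries, so F2 and F3 of the BLZ945 group lay within or at the edge of the CTL range. Mitochondrially encoded genes were not analysed here.

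These 2 lists were also compared by the letter in the library name and by transcript length. In the F libraries alone, 3 of 80 ribosomal protein genes and 0 of 81 oxidative phosphorylation genes had an unadjusted p below 0.05 in the lower direction (edgeR), with medians of -0.15 and -0.05. In the M libraries alone, these counts were 70 and 40, with medians of -0.67 and -0.46. A test of the difference itself (letter by treatment interaction, edgeR) found no gene of 11264 past the adjusted threshold, the lowest adjusted p being 0.833; at an unadjusted p below 0.05 it gave 38 of the 80 and 30 of the 81, against 5.53% of all genes. Across all genes, the median log2 fold change rose with transcript length, from -0.10 in the shortest quintile to 0.09 in the longest, and most genes of both lists are short, with median lengths of 704 and 680 bases. Within the shortest quintile, the 69 ribosomal protein genes had a median of -0.34, below that of the quintile as a whole. The part of transcript length in these shifts was not tested.

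Cell cycle genes had mostly negative values. Of 34 tested, 27 were negative with a median of -0.42, 8 (23.5%) had an unadjusted p below 0.05 in the lower direction and 1, the inhibitor Cdkn1a, in the higher; none passed by edgeR and DESeq2 called 5 lower. The 6 subunits of the MCM helicase, which unwinds DNA at the start of replication, were all negative with a median of -0.74. Mcm5 was at 71.9, 83.8, 38.4, 92.5 and 67.01 CPM in CTL MG and 40.6, 26.2, 17.3, 36.1 and 41.6 CPM in BLZ945 MG (log2 fold change of -1.13 ± 0.24, adjusted p = 0.0586 by edgeR), and Mcm7 and Mcm6 had log2 fold changes of -0.76 ± 0.18 and -0.72 ± 0.17. Pcna, the sliding clamp of DNA polymerase, was at 66.5, 80.9, 59.9, 85.8 and 74.3 CPM in CTL MG and 56.7, 48.6, 51.3, 58.3 and 63.5 CPM in BLZ945 MG (log2 fold change of -0.40 ± 0.12, adjusted p = 0.177 by edgeR), and E2f1, which drives entry into S phase, and Stmn1 were at a log2 fold change of -1.08 ± 0.28 and -0.88 ± 0.22. CTL F3 had the lowest summed level of its group, 1047 CPM against 1325 to 1411 CPM in the other CTL libraries, and the BLZ945 libraries ranged from 933 to 1225 CPM. Without CTL F3, 17 of the 34 had an unadjusted p below 0.05 in the lower direction, and 3 passed the adjusted threshold. Without CTL M2, these counts were 12 and 3.

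**Figure D5:**
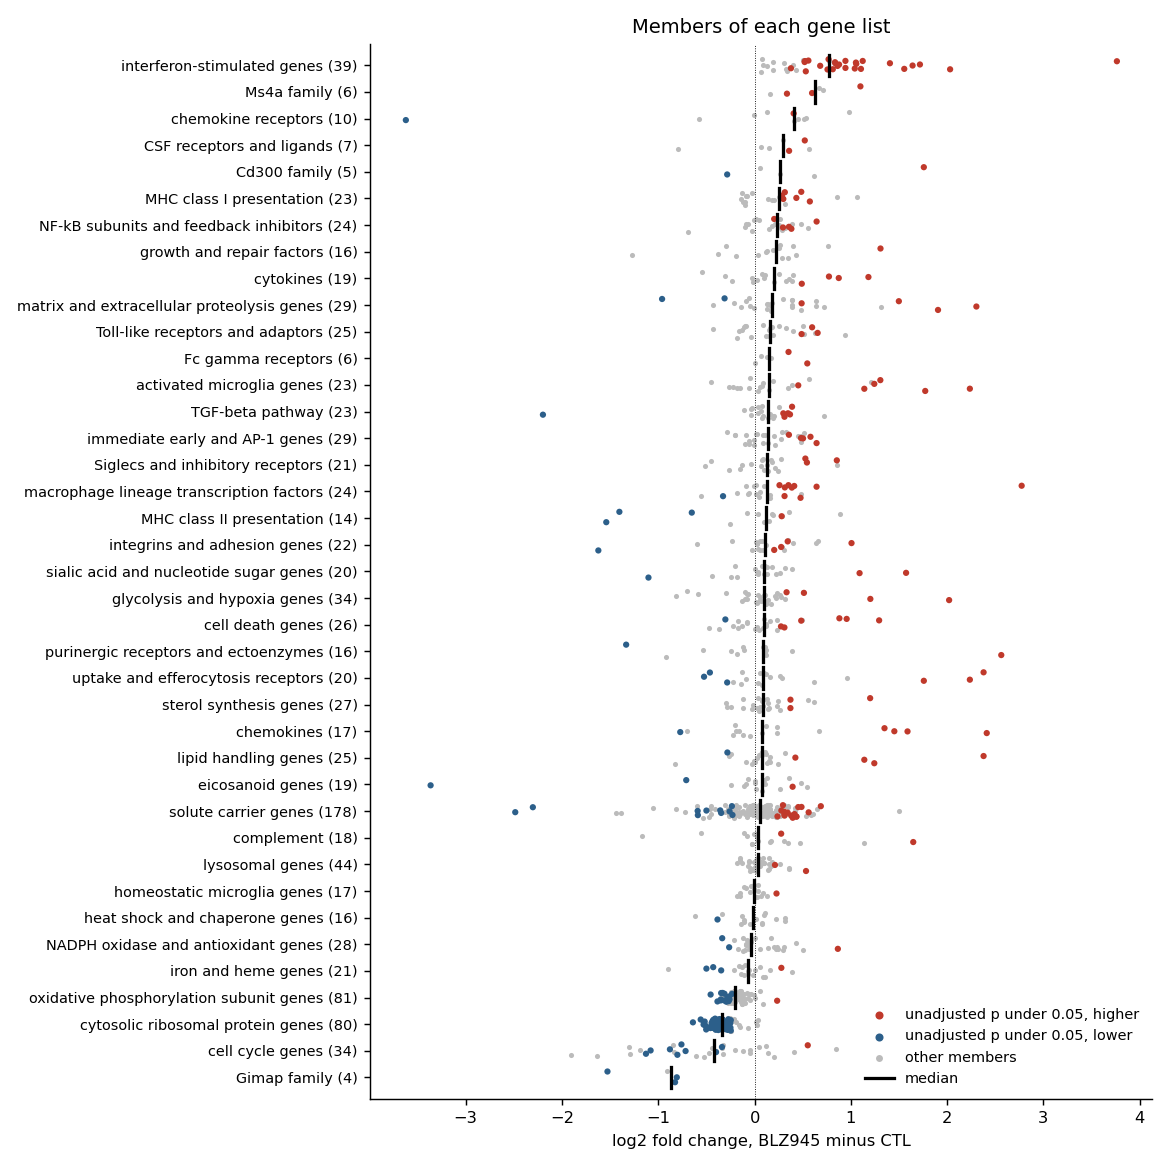
Log2 fold change of every tested gene in each list, 1 row per list with the median marked, red and blue points for genes at an unadjusted edgeR p below 0.05 in the higher and lower direction, and grey points for the others. The interferon-stimulated genes lie to the right of 0 (median 0.77), the ribosomal protein genes to the left (median -0.34), and the homeostatic genes centre on 0.

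Metabolic and tissue repair lists held isolated differences. In the sialic acid list, Npl was the 1 of 20 genes that fell, and St8sia6, which adds α2,8-linked sialic acid, was at 9.9002, 8.58, 7.04, 4.95 and 1.804 CPM in CTL MG and 28.3, 16.04, 16.3, 20.1 and 15.2 CPM in BLZ945 MG (log2 fold change of 1.57 ± 0.34, adjusted p = 0.0593 by edgeR). In the eicosanoid list, Ptger3 was the 1 of 19 that fell, and Mgll, which releases arachidonic acid from 2-arachidonoylglycerol, was at 41.6 to 62.02 CPM in CTL MG and 23.3 to 45.9 CPM in BLZ945 MG (log2 fold change of -0.71 ± 0.18, adjusted p = 0.0949 by edgeR). Among 16 purinergic genes, none passed by edgeR (DESeq2 called 1 higher and 1 lower); Ada, adenosine deaminase, was at 4.76, 6.82, 6.77, 8.82 and 5.17 CPM in CTL MG and 2.095, 3.3996, 2.61, 2.62 and 2.06 CPM in BLZ945 MG (log2 fold change of -1.33 ± 0.33, adjusted p = 0.0842 by edgeR), and P2ry14, the receptor for UDP-glucose, at 0 to 2.43 CPM in CTL MG and 2.27 to 8.73 CPM in BLZ945 MG (log2 fold change of 2.56 ± 0.78, adjusted p = 0.171 by edgeR). Of 34 glycolysis and hypoxia genes, 4 had an unadjusted p below 0.05, all higher, led by Pfkfb3, an activator of glycolysis, at a log2 fold change of 0.51 ± 0.12. Of 29 matrix genes, Fn1 rose and Serpinf1 fell, and the median was 0.18. Among 25 lipid handling genes, Cd36 was the 1 that rose, and Abca1, the cholesterol exporter, was at a log2 fold change of -0.28 ± 0.11. Of 21 iron and heme genes, 3 were lower and 1 higher at an unadjusted p below 0.05, and Hmox1, heme oxygenase, was at 119 ± 41.1 CPM in CTL MG and 117 ± 84.7 CPM in BLZ945 MG, a log2 fold change of -0.02 ± 0.44.

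The lists described next held no gene past the edgeR adjusted threshold, and their counts at an unadjusted p below 0.05 stand against 7.01% of all genes in the higher and 6.23% in the lower direction. The 44 lysosomal genes had a median of 0.03, with 2 at an unadjusted p below 0.05 and Galc, galactosylceramidase, leading at a log2 fold change of 0.53 ± 0.15. The 18 complement genes had a median of 0.03, and C1qa, a chain of C1q, was at 7067 ± 545 CPM in CTL MG and 6955 ± 1337 CPM in BLZ945 MG (log2 fold change -0.02 ± 0.12). The 27 sterol synthesis genes had a median of 0.09 with 3 at an unadjusted p below 0.05, and the 28 NADPH oxidase and antioxidant genes a median of -0.04 with 3. The 16 growth and repair factors had 1 such gene, Igf1, and the 178 solute carrier genes 26 (16 higher, 10 lower), with a median of 0.06. Of 26 cell death genes, 6 were higher (23.1%) and 1 lower at an unadjusted p below 0.05, among them the survival factors Bcl2a1d at a log2 fold change of 0.88 ± 0.26 and Bcl2a1a at 0.48 ± 0.16, near-identical genes whose reads cannot be assigned with certainty. Among 22 integrin and adhesion genes, 4 were higher (18.2%) and 1 lower. The groups did not overlap for 3 in the higher and 1 in the lower direction, against 1.52% and 1.57% of all genes. All 6 Fc receptor genes had positive values with a median of 0.15, 2 of them (33.3%) at an unadjusted p below 0.05, and Fcgr4 led at a log2 fold change of 0.55 ± 0.17.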

How the data were processed

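RNA was sequenced from sorted MG with a SMART-Seq mRNA LP kit on an Illumina sequencer, without molecular identifiers. The submitters' processing notes name bcl2fastq 2.20, STAR 2.7.11a, featureCounts 2.0.6 and DESeq2 1.46.0; the study's methods name Gencode M36 with mm10 or GRCm39 by date of experiment, without saying which served these libraries, and another featureCounts version. The authors deposited raw counts per gene for 23 libraries, of which the 10 MG libraries were analysed and tdT- CTL sdCAMs served for comparison of levels.

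Counts were tested with edgeR 4.0.16 (R 4.3.3): TMM scaling, filterByExpr, quasi-likelihood test of BLZ945 against CTL, two-sided, with Benjamini-Hochberg adjustment over the 11264 genes tested and a threshold of 0.05. The SE is the log2 fold change divided by the square root of its F statistic. DESeq2 1.42.0 was an alternative, as were other scalings, count filters, a term for the library letter, a block for the library name, a fit of all 23 libraries, and each library left out in turn. The fits without CTL M2 and BLZ945 F2 together, the fit of the M libraries alone and the letter by treatment interaction were added after the data were seen. The main script was tested on simulated data. No pair of libraries agreed within sampling noise (chi-square per gene between pairs of the same group, 15.7 or more). Library depth sets the precision of low values.

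The genes and lists were chosen with earlier results of these data known. Genes were named by rule: the 12 called genes with the largest fold change in each direction, then, in each list, called members, members with the lowest p until 4 were named, and the 2 with the highest CPM. The remaining called genes that are reported were added, and Apoe, C1qa, Ccl3, Cd74, E2f1, Fos, Gas6, Hmox1, Ifit1, Ifit2, Il1b, Irf7, Isg15, Mertk, Mrc1, Oasl2, Pcna, Rsad2, Sall1, Slfn5 and Tmem119, as well as the markers of other cell types given by name, were added after values were seen. One called gene and some members of the lists entered every fit and count but are not reported here by name. Transcript lengths and promoters came from RefSeq, matched by symbol; 94.2% of tested genes had a length.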

Additional observations from a re-analysis of the deposited data

Results flagged for a closer look

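Over 137 of the tested genes named above and 9 list sums, 24 groups of 5 libraries held a library whose distance to its nearest neighbour took more than 0.71 of the range of its group. This is 8.22% of the groups examined, where chance gives about 5% for independent, normally distributed values. CPM of genes that vary together need not meet these conditions, so no excess is read from the 8.22%. Genes with too few counts to be tested, such as S100a9 and Ngp, were not examined. CTL F3 was the separate library for Apoe at 1415 CPM, Axl at 42.3 CPM, H2-K1 at 674 CPM, Ifit2 at 79.4 CPM, Mrc1 at 37.8 CPM, S100a8 at 15.2 CPM and Samd9l at 9.03 CPM, all above the other CTL libraries, and for the summed cell cycle genes at 1047 CPM, below them. CTL M2 was separate for Spp1 at 18337 CPM, Cd86 at 641 CPM and Podxl2 at 3.03 CPM on the high side, and for Csf1r at 3599 CPM and the summed homeostatic genes at 58088 CPM on the low side. CTL F1 was high for Cspg4 at 1.75 CPM and Trpv4 at 16.0 CPM, and CTL F2 was high for H2-Aa at 43.1 CPM and low for Prune2 at 25.9 CPM.

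In BLZ945 MG, F3 was high for Cd300lf at 114 CPM, Csf2rb at 136 CPM, Fcgr4 at 200.4 CPM and Bcl2a1d at 30.6 CPM. BLZ945 F2 was high for Htra3 at 65.7 CPM, M1 was high for Mertk at 533 CPM, and M2 was low for H2-K1 at 520.4 CPM.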

How the results depend on the processing

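Each library held about as many counts as the others, so the spread between 5 libraries, more than depth, limits these comparisons; genes near 3 counts per library rest on few molecules. Pooling of animals went with treatment and could not be adjusted for. The 46 called genes (28 higher, 18 lower) kept their direction in every alternative that tested them.

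DESeq2 called 237 (132 higher, 105 lower), and testing without a count filter called 193 (121 and 72). The fit of all 23 libraries called 12 (8 and 4), and the F libraries alone 18 (12 and 6). The M libraries alone called 1 (1 and 0), and leaving out CTL M2 and BLZ945 F2 together called 171 higher and 104 lower, all 46 among them; these 2 settings were chosen after seeing the data. Leaving out 1 library gave 22 to 102 called, 13 to 62 higher and 7 to 40 lower, with the most calls without CTL M2 (102) and BLZ945 F2 (94). Size factors by relative log expression (46), library totals (40), a minimum of 10 counts per library (42), a filter on summed counts (55), a letter term (44) and leaving out both libraries that share an animal number (41) gave counts within 1.5 times that of the 46. One gene outside the report, Prdx1, had a log2 fold change of 0.00 over all libraries and 0.47 (edgeR adjusted p = 0.0442) without CTL M2 and BLZ945 F2. The cause of these changes was not tested.

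Library names are shared between the groups but mark different animals. The deviations of same-named libraries correlated at -0.01 to 0.19, and 1 of 5 libraries correlated best with its own name, so the libraries were not treated as paired. With a replicate block on the names, edgeR called 89 genes (57 higher, 32 lower), 42 of them among the 46.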

Other observations

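Ttr and Enpp2, known for their expression in the choroid plexus, were each high in 1 library, chosen after their values were seen. Ttr was at 564 CPM in BLZ945 F3 and at 0 to 7.60 CPM in the other 9 libraries. Enpp2 was at 188 CPM in BLZ945 F3 and at 0 to 3.76 CPM in the others. Neither passed the edgeR threshold (adjusted p = 0.152 for Ttr and 0.158 for Enpp2), and DESeq2 gave no adjusted p for them. Ccr2, the driver of the reporter allele, was at 6.32 ± 3.31 CPM in CTL MG and 4.22 ± 1.69 CPM in BLZ945 MG (SD, n = 5), with an edgeR adjusted p of 0.585.

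Subunits of the mitochondrial ribosome, a list chosen after values were seen, had a median log2 fold change of -0.18 over 79 genes, of which 68 were negative and 13 had an edgeR unadjusted p below 0.05 in the lower direction.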
